A study of Mus musculus with 4 samples.

Results

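The 6 actin genes of the mouse are Acta2, Actg2, Actc1, Acta1, Actb and Actg1, and 9 probe sets of the array were paired with exactly 1 of these symbols and are no control probe sets. They were taken by symbol alone, from 34945 such probe sets that name 18193 genes, and all 9 passed the filter on low signal. Acta2 had 3 probe sets, Actb had 2 and each of the other actin genes had 1. The arrays measured RNA from aortas of mice lacking Smad4 specifically in smooth muscle cells (Smad4-KO) and of wild-type littermates (WT), all 6 weeks of age. Each genotype had 2 arrays, biological replicates 1 and 2, and each array took 400 ng of RNA from 3 to 5 pooled vessels. The labels name neither the Cre line nor the deleted part of Smad4, and other cells of the vessel wall keep the gene. A signal is the linear intensity of a probe set as the authors deposited it, and its trimmed mean is the same on every array.

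Actin is the protein of the thin filament, and its genes encode nearly identical proteins that differ in where they are made. Acta2 (alpha) and Actg2 (gamma) are the actins of smooth muscle, with Acta2 typical of arteries and Actg2 of gut and other visceral muscle. Actc1 and Acta1 are the actins of heart and skeletal muscle, and Actb and Actg1 are the cytoplasmic actins found in nearly all cells. The muscle actin genes are known targets of the serum response factor SRF, which binds the CArG box in their promoters and works with the cofactor myocardin and its relatives.

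Promoter sequences of 4 of the 6 genes were at hand, from RefSeq (GRCm38.p6), each running from 250 bases before to 50 bases after the annotated start. They are shown because the genes they belong to are known SRF targets and their measured differences did not all have the same sign. Each is written 5′ to 3′ on its gene's minus strand, with capitals on every CArG box, either matching in full or with exactly 1 G or C in its A/T core. The windows are chr19:34255324-34255623 for Acta2, chr2:114052826-114053125 for Actc1, chr8:123894726-123895025 for Acta1 and chr11:120348446-120348745 for Actg1.
Acta2: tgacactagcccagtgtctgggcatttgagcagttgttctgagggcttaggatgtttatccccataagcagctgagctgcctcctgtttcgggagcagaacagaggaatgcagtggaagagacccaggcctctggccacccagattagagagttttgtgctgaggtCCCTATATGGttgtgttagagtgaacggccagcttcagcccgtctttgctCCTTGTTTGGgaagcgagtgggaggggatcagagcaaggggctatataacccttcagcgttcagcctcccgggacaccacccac
Actc1: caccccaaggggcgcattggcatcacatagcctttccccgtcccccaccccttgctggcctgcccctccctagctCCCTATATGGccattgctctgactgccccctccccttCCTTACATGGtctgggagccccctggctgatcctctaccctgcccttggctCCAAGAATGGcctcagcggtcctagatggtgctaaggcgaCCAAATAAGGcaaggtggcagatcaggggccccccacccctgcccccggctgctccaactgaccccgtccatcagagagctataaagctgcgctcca
Acta1: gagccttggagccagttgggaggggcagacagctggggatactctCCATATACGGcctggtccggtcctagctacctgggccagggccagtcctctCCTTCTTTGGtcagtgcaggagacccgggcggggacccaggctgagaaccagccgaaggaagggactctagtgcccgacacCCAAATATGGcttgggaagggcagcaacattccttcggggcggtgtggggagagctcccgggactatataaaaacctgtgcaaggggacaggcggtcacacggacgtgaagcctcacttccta
Actg1: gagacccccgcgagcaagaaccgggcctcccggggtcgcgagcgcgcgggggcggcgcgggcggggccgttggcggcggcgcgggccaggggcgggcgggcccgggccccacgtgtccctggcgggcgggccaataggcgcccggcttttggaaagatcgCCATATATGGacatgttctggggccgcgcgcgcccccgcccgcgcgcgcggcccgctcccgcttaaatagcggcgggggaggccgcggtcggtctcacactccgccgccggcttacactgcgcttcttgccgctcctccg
The Acta2 window held 2 CArG boxes, both with 1 substitution, at positions -84 to -75 and -34 to -25 from the start. The Actc1 window held 4, of which the box at -47 to -38 matched in full, and the Acta1 window held 3, of which the box at -73 to -64 did. The single box of Actg1, at -90 to -81, matched in full. Of 32851 mouse promoter windows of this length 1.63% held a full match, 9.98% held a box of either kind and 0.822% held at least 2. The MCAT element CATTCC, searched on both strands, was found in Acta2 and Acta1 and in 14.7% of all windows. The short Smad box CAGAC, searched in the same way, was found in Acta2, Actc1 and Acta1 and in 49.6% of all windows, and in Actc1 it shared 1 base with a CArG box. A match is a description of the letters and not evidence of binding.

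The comparison asks how the actins differed between aortas with and without Smad4 in smooth muscle. The smooth muscle and heart actins had lower signals on both Smad4-KO arrays than on both WT arrays, the skeletal muscle actin had higher ones, and the cytoplasmic actins overlapped. The gene fit with limma takes the brightest probe set of each gene and adjusts p over 13645 genes, and the probe set fit takes every probe set by itself and adjusts over 26209. In the gene fit 1 of 6 actin genes passed an adjusted p of 0.05, Actg2, which was lower, where 1.39% of all genes passed in that direction and 6.31% in either, and 0 of 6 passed as higher, where 4.92% of all genes did. In the probe set fit 1 of 9 probe sets passed, an Acta2 probe set that was lower, where 0.0801% of all probe sets passed in that direction and 0.782% in either, and 0 of 9 passed as higher, where 0.702% did. At an unadjusted p under 0.05 there were 3 of 6 genes, where 19.3% of all genes were, and 5 of 9 probe sets, where 14.1% of all probe sets were. For 5 of 9 probe sets both signals in Smad4-KO were under both in WT, against 20.1% of all probe sets, and for 1 they were over them, against 22.0%, so 6 of 9 separated the genotypes, against 42.2%. Counted by gene, 3 of 6 were lower in this sense, against 21.4% of all genes, and 1 was higher, against 25.9%, so 4 of 6 separated the genotypes, against 47.3%. In bulk tissue fewer cells of a type and less RNA per cell cannot be told apart.

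**Figure D1:**
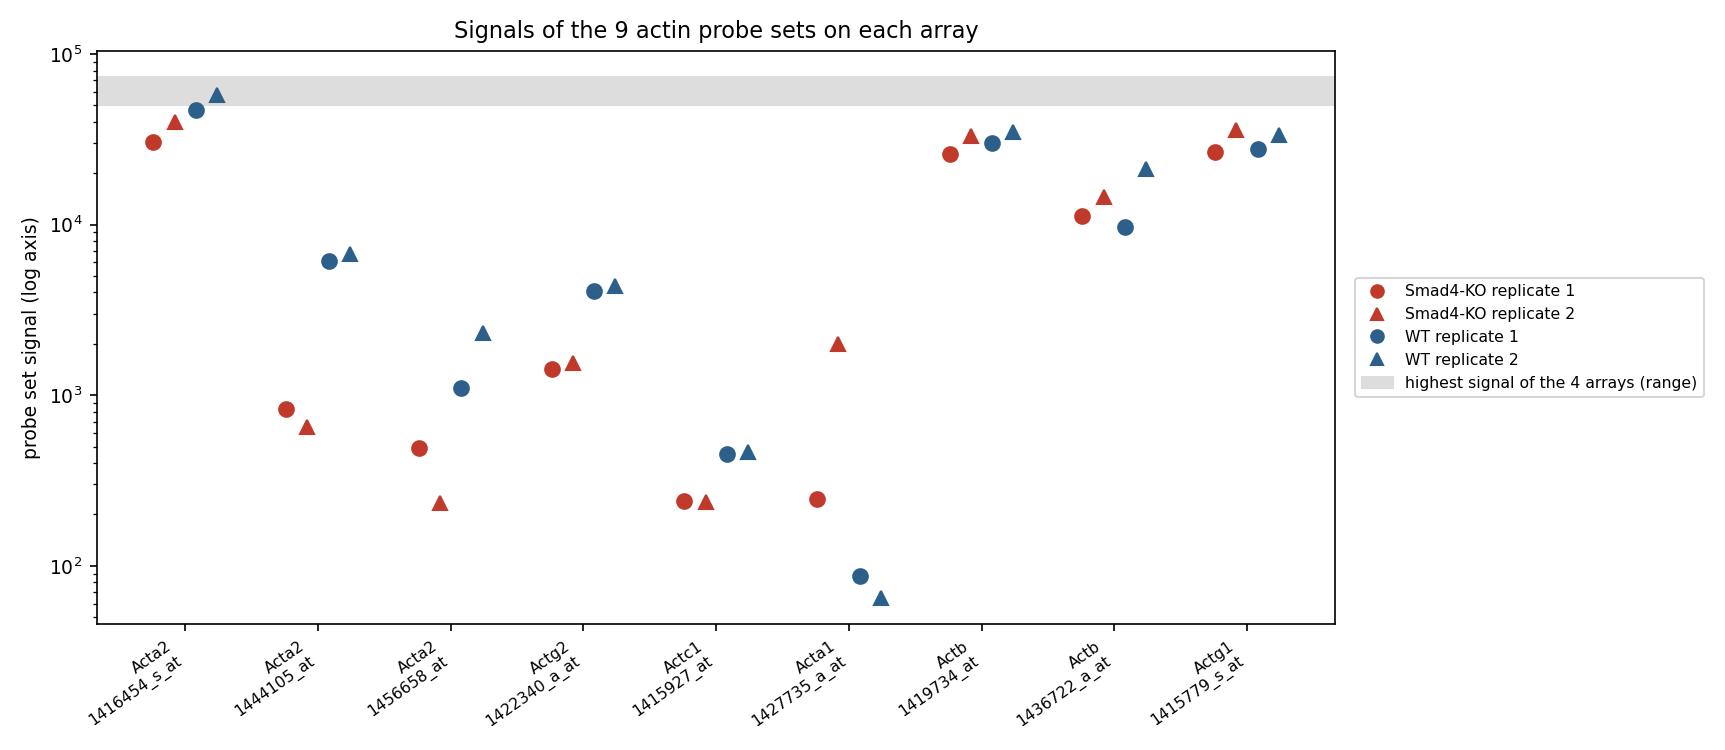
Signal of each of the 9 actin probe sets (columns) on each array, on a log axis. Red marks are Smad4-KO and blue marks WT, circles are replicate 1 and triangles replicate 2, and the grey band spans the highest signals of the 4 arrays, 50167 to 73520. The Acta2, Actg2 and Actc1 probe sets are lower on both Smad4-KO arrays, Acta1 is higher, and the Actb and Actg1 probe sets overlap.

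Some measures of the whole series touch these values. The targeted gene had Smad4 signals of 2676 and 3580 on the Smad4-KO arrays, against 4394 and 3819 on the WT arrays (log2 difference -0.40 ± 0.32, the standard error from limma, adjusted p = 0.626), and whether its probe set reads the deleted part is not known. In the gene fit 4.92% of all genes rose and 1.39% fell, the shares to set beside the counts that follow. Of 18 contractile genes of smooth muscle and SRF cofactors tested, 5 fell and 0 rose in the gene fit, with a median log2 difference of -1.51 beside -0.01 over all genes tested. Their summed signal was 108847 to 111647 on the Smad4-KO arrays and 261501 to 304952 on the WT arrays, so the defining genes of the tissue were present in both genotypes. Of 15 macrophage markers 11 rose and 0 fell (median 3.05), and their summed signal was 79718 to 120320 in Smad4-KO and 13078 to 19474 in WT. Those of lowest p were Ptprc, a phosphatase of all white blood cells (3.66 ± 0.31), the lysosomal protein Cd68 (3.45 ± 0.33) and the endotoxin co-receptor Cd14 (2.97 ± 0.31), with adjusted p of 0.0125, 0.0128 and 0.0136. All 14 nerve cell markers tested rose (median 4.53), with summed signals of 36370 to 48328 in Smad4-KO and 2017 to 2409 in WT. Th, which makes catecholamines (5.03 ± 0.30), and the neurofilaments Nefm (4.95 ± 0.31) and Nefl (4.92 ± 0.31) led them, each with an adjusted p of 0.0125. The part of these cell types in the actin differences was not tested. Smad4-KO replicate 2 and WT replicate 1 had a high ratio of 3′ to 5′ signal in the labelling controls, and Smad4-KO replicate 1 and WT replicate 2 a low one. Each of these pairs has 1 array per genotype, and the difference within each pair is given beside the results.

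Acta2, the alpha-actin of arterial smooth muscle, was read by 3 probe sets that disagreed in size and not in direction. The brightest, 1416454_s_at, had signals of 30692 and 39989 in Smad4-KO, against 47232 and 57304 in WT. Both Smad4-KO arrays were below both WT arrays, by a log2 difference of -0.57 ± 0.32 in the gene fit (95% interval -1.38 to 0.24, adjusted p = 0.447), which did not pass the test. In Affymetrix naming the suffix s marks a probe set whose probes match transcripts of more than 1 gene, so this signal may hold more than Acta2. Probe set 1444105_at had signals of 832 and 652 in Smad4-KO, against 6130 and 6719 in WT, and the arrays of a genotype lay much closer to each other than to the other genotype. It fell 8.71-fold (log2 difference -3.12 ± 0.34, 95% interval -4.0 to -2.24, adjusted p = 0.0473 in the probe set fit). Probe set 1456658_at had signals of 490 and 232 in Smad4-KO, against 1109 and 2310 in WT. The genotypes did not overlap, but replicates of the same genotype differed by 1.08 on the log2 scale in Smad4-KO and by 1.06 in WT. Its log2 difference was -2.25 ± 0.58 in the probe set fit (95% interval -3.74 to -0.76, adjusted p = 0.174). With the mean of the 3 Acta2 probe sets as the gene's signal, the log2 difference was -1.98. It also missed the threshold (limma, adjusted p = 0.0513), so the size of the Acta2 difference depended on the probe sets taken.

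The fall of 1444105_at was a borderline call, as was every call of the probe set fit. The lowest adjusted p over its 26209 probe sets was also 0.0473. The call of 1444105_at was lost when any 1 array was left out, in fits with 1 array left in a genotype. Its log2 difference stayed between -3.33 and -2.95 over 14 alternatives. Within the pairs of arrays alike in their labelling controls the difference was -3.01 (Smad4-KO replicate 1 minus WT replicate 2) and -3.23 (Smad4-KO replicate 2 minus WT replicate 1). With these pairs as a block in limma it did not pass (adjusted p = 0.138), and no other probe set passed either. For 1456658_at the differences within the pairs were -2.24 and -2.26, and for the bright 1416454_s_at -0.90 and -0.24. The pairs were thus furthest apart for the brightest Acta2 probe set.

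**Figure D2:**
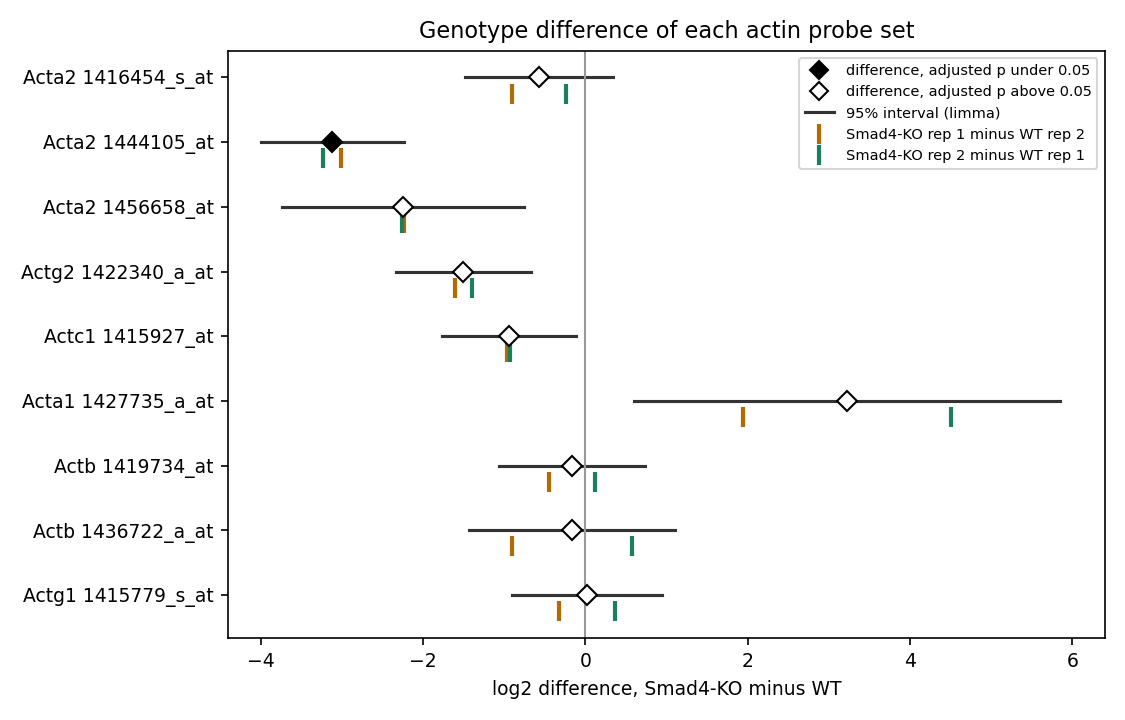
Log2 difference, Smad4-KO minus WT, of each actin probe set (rows) in the probe set fit. Diamonds are differences, filled where the adjusted p is under 0.05, lines are 95% intervals from limma, and the ticks below are the differences within the pairs of arrays alike in their labelling controls. The Acta2 probe set 1444105_at, at -3.12, is the only filled diamond. The intervals of Acta2 1416454_s_at, of both Actb probe sets and of Actg1 span 0.

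The 3 Acta2 probe sets spanned 2.55 on the log2 scale in their genotype difference. Of 1709 genes with exactly 3 tested probe sets 1.76% spanned as much, and the median span was 0.58. Within an array, the log2 ratio of 1444105_at to 1416454_s_at was lower in Smad4-KO by -2.55 as a difference of means, with both Smad4-KO arrays below both WT arrays (exact permutation test, two-sided, p = 0.333, the smallest that 2 against 2 arrays can give). The annotation ties the dimmer Acta2 probe sets to single expressed sequence tags, and neither the part nor the strand of the Acta2 locus that they read could be checked, the called 1444105_at included.

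The brightest Acta2 probe set lay at the top of the signal range. It ranked 19 on both Smad4-KO arrays, and 2 and 5 on the WT arrays, of 45101 probe sets, and it reached 60.7% to 61.2% of the array's highest signal in Smad4-KO and 77.9% to 86.3% in WT. Actb probe set 1419734_at ranked 32 and 43 in Smad4-KO and 63 and 32 in WT, and the Actg1 probe set ranked 29 and 31 in Smad4-KO and 84 and 38 in WT. Among the 20 brightest probe sets tested, which include these 3, log2 differences ran from -0.64 (Gsn, which severs actin filaments) to 0.10 (Dcn, a matrix proteoglycan), with an SD of 0.23, and 0 of the 20 differed by 1 or more. Acta2 had the second lowest difference of those 20. Among the 100 brightest, 10 were lower by at least 1, down to -1.95 for the integrin subunit Itga8, and 1 was higher by at least 1. Among the probe sets ranked 1001 to 5000, where 1444105_at and Actg2 lie, the SD was 0.81 and 311 of 4000 were lower by at least 1. Whether the top of the range narrows the Acta2 difference was not tested.

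**Figure D3:**
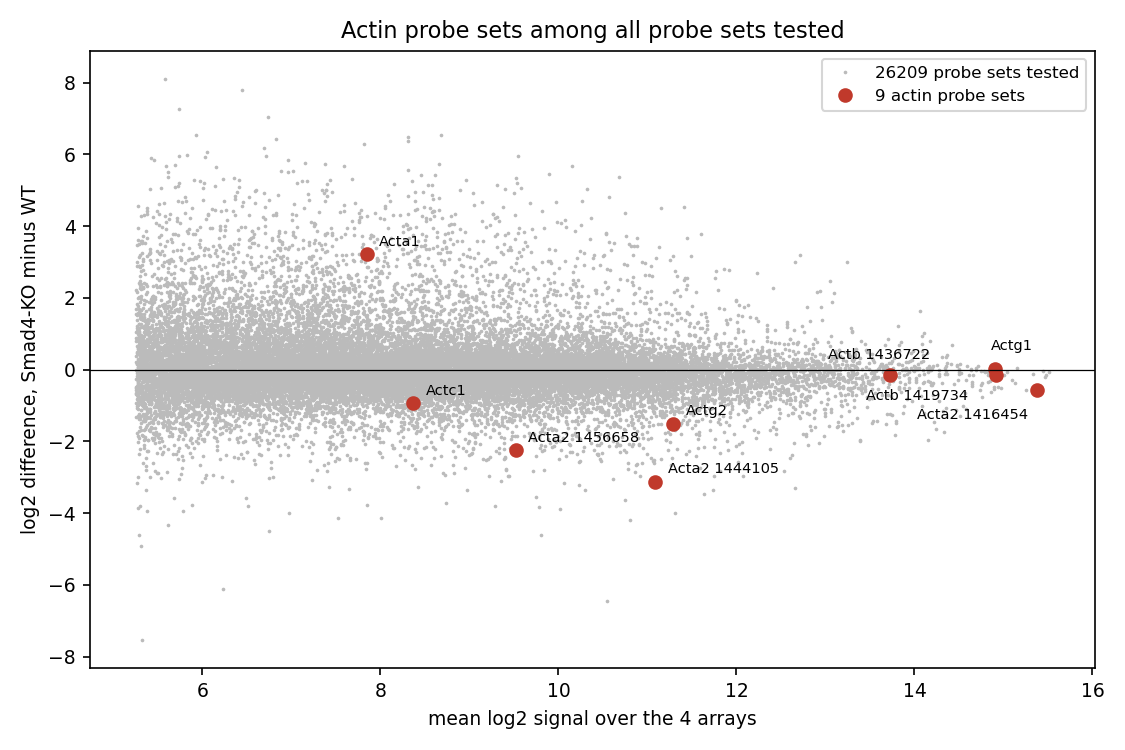
Log2 difference, Smad4-KO minus WT, against mean log2 signal over the 4 arrays, for the 26209 probe sets tested (grey) and the 9 actin probe sets (red). The spread of differences narrows towards high signal, where the brightest Acta2 probe set, Actb 1419734_at and Actg1 lie. Acta2 1444105_at, at -3.12, is the lowest of the 9, and Acta1, at 3.22, the highest.

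Actg2, the gamma-actin of visceral smooth muscle, had signals of 1426 and 1550 in Smad4-KO, against 4087 and 4363 in WT. The replicates of a genotype differed by at most 0.12 on the log2 scale, and the genotypes did not overlap. Actg2 fell 2.84-fold (log2 difference -1.51 ± 0.29, 95% interval -2.24 to -0.77, adjusted p = 0.0469 in the gene fit), which placed it lower than 97.5% of the genes tested. The same probe set did not pass the probe set fit (adjusted p = 0.123). Within the labelling pairs the difference was -1.61 and -1.40. With these pairs as a block in limma it did not pass (adjusted p = 0.0932), where 0 of the 13645 genes tested passed. The Actg2 call was also lost when any 1 array was left out, in fits with 1 array left in a genotype. Its log2 difference lay between -1.72 and -1.40 over 15 alternatives.

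Actc1, the alpha-actin of heart muscle, which smooth muscle can also express at a low level, had signals of 239 and 237 in Smad4-KO, against 452 and 463 in WT. Replicates nearly coincided, with gaps of 0.01 in Smad4-KO and 0.04 in WT on the log2 scale, and the genotypes were apart. The log2 difference of -0.94 ± 0.29 (95% interval -1.67 to -0.22, fold 1.92 lower) did not pass the gene fit (adjusted p = 0.147) and passed under none of 15 alternatives (adjusted p from 0.11 to 0.493). Within the labelling pairs it was -0.96 and -0.93. Of 10 heart muscle sarcomere markers tested 1 fell and 0 rose, where 1.39% and 4.92% of all genes did. Their median was -0.71, and their summed signal was 1280 to 1480 in Smad4-KO and 1898 to 2090 in WT. The marker that fell was Myh6, the alpha heavy chain of heart myosin (-2.44 ± 0.38, adjusted p = 0.0282), with signals of 42.3 and 29.3 in Smad4-KO, against 153 and 240 in WT. Such low signals are not shown to be above background, and with signals below 64 raised to 64 the call was lost (-1.58 ± 0.33, adjusted p = 0.058). Mybpc3, a myosin-binding protein of heart, had -1.03 (adjusted p = 0.154) and Myl3, a ventricular light chain, 1.80 (adjusted p = 0.209), or 0.58 with that floor.

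Acta1, the alpha-actin of skeletal muscle, had signals of 248 and 1989 in Smad4-KO, against 87.4 and 64.7 in WT. Both Smad4-KO arrays were above both WT arrays, but the replicates of Smad4-KO differed 8.03-fold, the widest gap between replicates among the 9 actin probe sets. The log2 difference was 3.22 ± 0.96 (95% interval 0.81 to 5.63, 9.33-fold), and it did not pass the test (adjusted p = 0.138). Both WT signals lay below the medians of their arrays, 111 for WT replicate 1 and 132 for WT replicate 2. They are not shown to be above background, so the size of the 9.33-fold value is uncertain. The floor used for Myh6 could not test this, because both WT signals of Acta1 lie above that floor. Smad4-KO replicate 2 set much of the log2 difference. Without it the difference was 1.72, and without Smad4-KO replicate 1 it was 4.73 and passed. Each of these fits rests on 1 Smad4-KO array and has no replicate of that genotype. Within the labelling pairs it was 1.94 (Smad4-KO replicate 1 minus WT replicate 2) and 4.51 (Smad4-KO replicate 2 minus WT replicate 1).

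Markers of the skeletal muscle sarcomere stood high on that same array. Their summed signal over 11 genes tested was 1146 on Smad4-KO replicate 1 and 13280 on Smad4-KO replicate 2, against 1499 and 1116 on the WT arrays. Of the 11 markers 9 were highest on Smad4-KO replicate 2, as were 24.7% of all genes tested. None passed the test in limma in either direction, and 2 of 11 had an unadjusted p under 0.05, a share close to the 19.3% of all genes tested: Tnni2, a fast troponin (2.42 ± 0.73, adjusted p = 0.14), and Myh2, a fast myosin heavy chain (3.60 ± 1.42, adjusted p = 0.254). Myh1, another fast myosin heavy chain, had signals of 380 and 7191 in Smad4-KO, against 382 and 107 in WT. On Smad4-KO replicate 1 the summed markers lay within the range of the WT arrays while Acta1 was 1.5 above the higher of its WT signals on the log2 scale. Single markers went both ways on that array. Tnni2 (110, against 56.0 and 31.1 in WT) and Myh2 (85.6, against 64.7 and 10.8) were above both WT arrays. Tnnt1, Tnnt3, Tnnc2 and Mybpc2 were below both, and the other markers lay between them. The part of skeletal muscle in the Acta1 difference was not tested beyond these values.

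**Figure D4:**
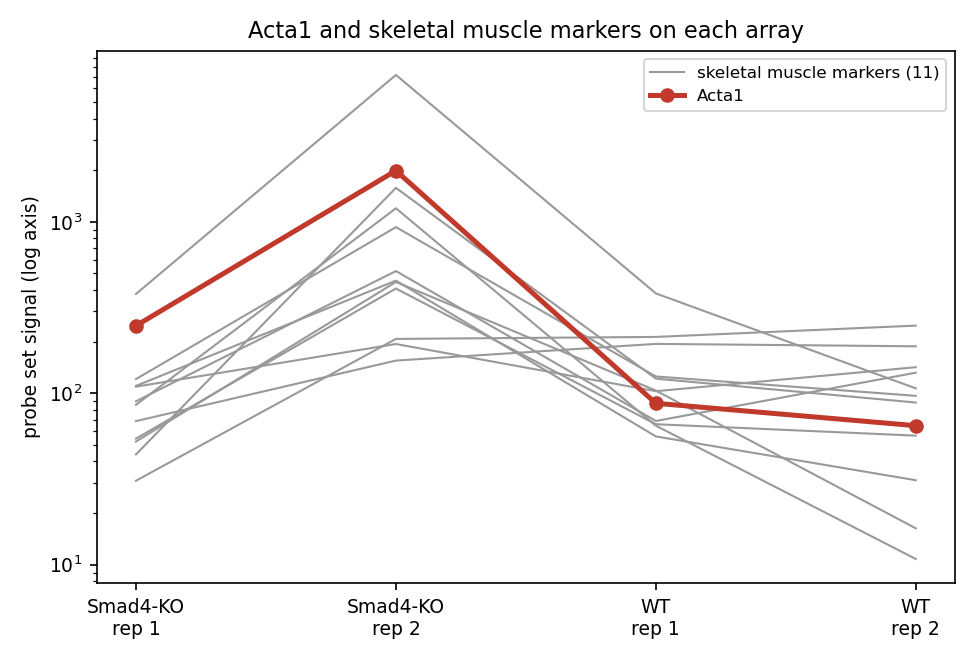
Signals of Acta1 (red) and of 11 markers of the skeletal muscle sarcomere (grey) on each array, on a log axis, with the Smad4-KO arrays left of the WT arrays. Acta1 peaks at 1989 on Smad4-KO replicate 2, where 9 of the 11 markers also have their highest signal, and on Smad4-KO replicate 1 it is 248.

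Actb, the beta-actin of the cytoplasm and a common loading control, had 2 probe sets, and both overlapped between the genotypes. Probe set 1419734_at had signals of 25767 and 32934 in Smad4-KO, against 30224.5 and 35117 in WT. Its log2 difference was -0.16 ± 0.31 in the gene fit (95% interval -0.95 to 0.63, adjusted p = 0.874) and -0.16 ± 0.35 in the probe set fit (adjusted p = 0.924). Probe set 1436722_a_at had signals of 11273 and 14563 in Smad4-KO, against 9731 and 21165 in WT, and both Smad4-KO arrays lay between the WT arrays. Its log2 difference was -0.16 ± 0.49 in the probe set fit (95% interval -1.44 to 1.11, adjusted p = 0.948). Actg1, the gamma-actin of the cytoplasm, had signals of 26737 and 35839 in Smad4-KO, against 27912 and 33575 in WT. Its log2 difference was 0.02 ± 0.33 in the gene fit (95% interval -0.80 to 0.83, adjusted p = 0.991), and its probe set also carries the suffix s. In the gene fit these intervals reach -0.95 on the log2 scale for the brightest Actb probe set and 0.83 for Actg1. In the probe set fit they reach -1.06 and 0.94 for these, and -1.44 and 1.11 for the dimmer Actb probe set. A p that missed the threshold therefore does not show that the cytoplasmic actins were equal.

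The sign of the cytoplasmic actins depended on the scaling. Quantile normalization and cyclic loess turned the Actb difference to 0.10, and centring each array on its median, which moved the median of all genes to -0.22, turned Actg1 to -0.20. Within the pairs alike in their labelling controls, Actb 1419734_at gave -0.45 and 0.12, Actb 1436722_a_at gave -0.91 and 0.58, and Actg1 gave -0.33 and 0.36, in each case lower for Smad4-KO replicate 1 minus WT replicate 2.

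The array also carries 3 control probe sets along the beta-actin transcript, which are not among the 9. The 3′ control had signals of 13225 and 24074 in Smad4-KO, against 18341 and 26076 in WT, and overlapped. The middle control had 5003 and 4791 in Smad4-KO, against 6685 and 12815 in WT, with both Smad4-KO arrays below both WT arrays (log2 difference -0.92, exact permutation test, two-sided, p = 0.333, the smallest possible). The 5′ control had 4674 and 1879 in Smad4-KO, against 1609 and 6228 in WT. Its 2 high arrays were 1 of each genotype, and the ratio of 3′ to 5′ signal was 2.83 and 12.8 in Smad4-KO, against 11.4 and 4.19 in WT. At the 5′ end the replicates of a genotype were further apart than the genotypes, whose log2 difference was -0.10.

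**Figure D5:**
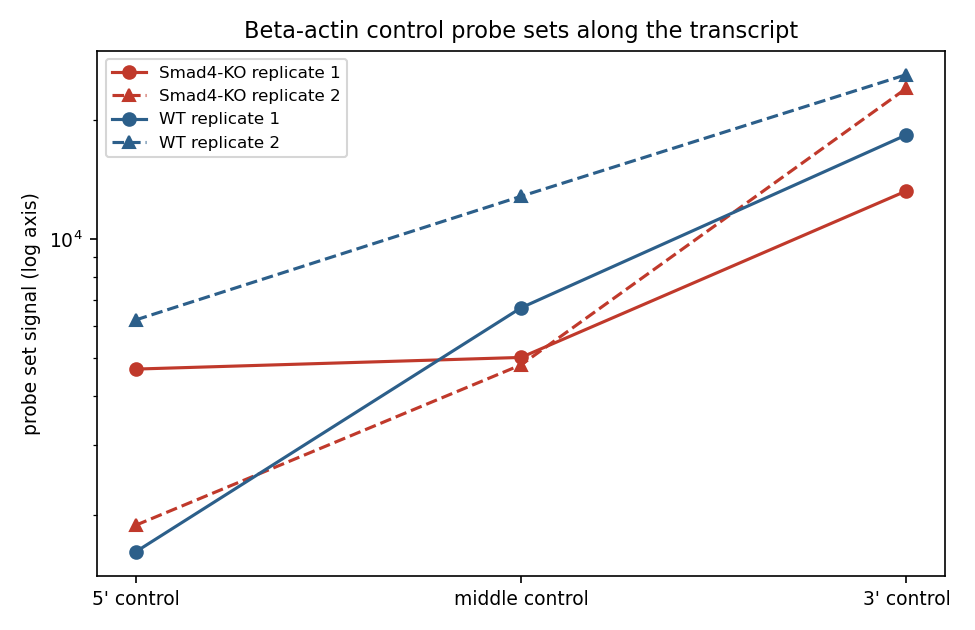
Signals of the beta-actin control probe sets at the 5′ end, the middle and the 3′ end of the transcript, on a log axis, with red for Smad4-KO, blue for WT, solid lines for replicate 1 and dashed lines for replicate 2. The lines of Smad4-KO replicate 2 and WT replicate 1 rise steeply from 1879 and 1609 at the 5′ end, and those of the other arrays start at 4674 and 6228.

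Ratios within an array do not change with a factor that scales the whole array. Relative to Actb, the genotype difference of the log2 ratio was -0.41 for Acta2, -1.34 for Actg2, -0.78 for Actc1 and 3.38 for Acta1. Relative to Actg1 it was -0.59, -1.52, -0.96 and 3.21 for the same genes in the same order. All 15 ratios between actin genes separated the genotypes, also Actb to Actg1 (-0.18), where 41.8% of all genes separated them relative to Actb and 39.3% relative to Actg1. With the mean of the Actb probe sets the ratio of Actb to Actg1 overlapped (exact permutation p = 0.667). The ratios share 6 genes and are not independent. In an exact permutation test each of the 15 pairs gave p = 0.333, also after Benjamini-Hochberg adjustment over the pairs, which is the smallest that 2 against 2 arrays allow. Acta2 moved less than Actg2 by 0.94 and less than Actc1 by 0.37 on the log2 scale with its brightest probe set, and both signs turned with the mean of the Acta2 probe sets (-0.47 and -1.04).

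Genes that handle actin were counted from lists drawn up for this tissue. Of 17 genes of monomer binding and filament turnover 1 rose and 1 fell, with a median of -0.06. Of all genes tested 4.92% rose and 1.39% fell. Cap2, a cyclase-associated protein that recycles actin monomers, had signals of 271 and 307 in Smad4-KO, against 1200 and 1720 in WT, and fell 4.97-fold (-2.31 ± 0.33, adjusted p = 0.0226). Pfn2, a profilin that loads monomers for assembly, had 7120 and 6950 in Smad4-KO, against 2620 and 2320 in WT, and rose 2.86-fold (1.51 ± 0.29, adjusted p = 0.0469). Dstn, destrin, which disassembles filaments, had -1.46 ± 0.33 and missed the threshold (adjusted p = 0.0691). These members were picked by their low p. In the list both Smad4-KO arrays were above both WT arrays for 4 of 17 genes and below them for 6. Of all genes tested 25.9% were above and 21.4% below in this sense. The median of the list was close to that of all genes, -0.01.

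Of 23 genes of nucleation and elongation 3 rose and 0 fell, with a median of 0.19. Of all genes tested 4.92% rose and 1.39% fell. Coro1a, a coronin of white blood cells, rose 12.8-fold (3.68 ± 0.43, adjusted p = 0.0166), Was, the Wiskott-Aldrich protein of blood cells, 7.03-fold (2.81 ± 0.50, adjusted p = 0.0368), and Evl, of the Ena/VASP family, 4.13-fold (2.05 ± 0.40, adjusted p = 0.047). Macrophage markers were higher on the same arrays (median 3.05), and their part in these rises was not tested. Of 16 genes of actin folding and processing, the chaperonin and prefoldin subunits among them, 0 passed in limma and 1 had an unadjusted p under 0.05, where 19.3% of all genes did, with a median of 0.04. That member was Pdcl3, a chaperonin cofactor, at -0.88 ± 0.30 (adjusted p = 0.185), and Pfdn1 (-0.35) and Pfdn5 (-0.28), both prefoldin subunits, came next. Of 7 actin-related proteins tested 0 passed and 0 had an unadjusted p under 0.05, with a median of -0.11, and those of lowest p were Actl6b (0.74), Actr5 (-0.39) and Actl7b (-0.34).

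Among the contractile genes and SRF cofactors, those of lowest p were partners of the smooth muscle thin filament. Cnn1, calponin, had signals of 1590 and 1810 in Smad4-KO, against 9920 and 10300 in WT, and fell by 2.58 on the log2 scale (adjusted p = 0.0161). Smtn, smoothelin, fell by 2.34 (adjusted p = 0.0182) and Synpo2, an actin bundler, by 2.96 (adjusted p = 0.0205). In the list 17 of 18 differences were negative, where 6870 of the 13645 genes tested were. For the lists that follow, 19.3% of all genes had an unadjusted p under 0.05 in limma. Of 10 endothelial markers (median 0.00) 0 passed in limma and 1 had an unadjusted p under 0.05, the receptor Kdr (1.40 ± 0.38, adjusted p = 0.113), followed by Nos3 (-0.80) and Vwf (-0.72). Of 10 fibroblast markers (median -0.01) 0 passed and 0 had an unadjusted p under 0.05, led by Scara5 (-0.81), Pi16 (-0.87) and Dpep1 (-0.61). Of 8 fat markers (median 0.03) 0 passed and 1 had an unadjusted p under 0.05, the uncoupling protein Ucp1 (-3.84 ± 1.42, adjusted p = 0.222), followed by Cidea (-2.47) and the hormone Lep (-1.79).

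The genes whose profile over the 4 arrays came closest to each actin were found by Euclidean distance of mean-centred log2 signals. This distance is not scaled and tends to grow with the size of the differences in a profile. It therefore does not show how common a pattern was. Closest to Acta2 were Evx2 (distance 0.0658), Sulf1, a heparan sulfatase (0.0675), and Fat1, a protocadherin (0.0733). Closest to Actg2 were Ntn1, netrin (0.0585), Nipal2 (0.126) and Mical2, an enzyme that oxidises actin (0.132), and these 3 genes had log2 differences of -1.52, -1.46 and -1.59. Closest to Actc1 were Arhgef5 (0.0626), Adgra3 (0.0783) and Hdgfl3 (0.0816). Closest to Acta1, whose signals varied most among the actins, were Ms4a6c (0.462), Gm6377 (0.637) and Piezo2, a mechanosensitive channel (0.696). Ms4a6c had a log2 difference of 3.31. Closest to Actb were Mthfsd (0.0186), Mllt1 (0.0282) and Scara3 (0.032), and closest to Actg1 were Scrib (0.0244), Ice2 (0.035) and Fgfr4 (0.0495). Among the actins Actb and Actg1 were closest to each other (0.187), and the nearest actin to Acta1 was at 3.72. With 4 arrays these distances rest on few points.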

How the data were processed

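The authors deposited probe set signals as intensity on a linear scale, 45101 per array. RMA and Affymetrix Expression Console are the tools named, per the submitters' processing notes, with no version. The values are not on a log scale, and their mean after trimming 2% at each end is 500 on every array, so how the named tools gave them is not known. Which genome build and annotation the array values rest on is not stated in the labels or headers, and no detection calls were used. The array medians were 133 and 137 in Smad4-KO and 111 and 132 in WT, and the number of arrays limits the precision.

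Control probe sets (64) and those with several symbols (932) or none (9160) were left out. Values were taken to log2. The gene fit used each gene's probe set of highest mean, the probe set fit used every probe set, and both left out those below the 25th percentile. Genotypes were compared with limma 3.58.1 (R 4.3.3; lmFit, eBayes, two-sided, genotype as the only term), with Benjamini-Hochberg adjustment over all features and a threshold of 0.05. A ± is the standard error of a difference from limma, and p-values measure the spread between pools. Python 3.11.15 and scipy 1.17.1 gave exact tests, and the fits were tested on simulated data.

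The members, lists and tests were chosen with earlier results of these data known, and the spans of probe sets within genes and the top of the signal range were examined after seeing the values. Named were all actin probe sets, Smad4, the beta-actin controls, the 3 members of each list with the lowest p, and the 3 nearest profiles of each actin. Itga8, Dcn, Gsn, Tnnt1, Tnnt3, Tnnc2 and Mybpc2 were named after their values were seen. The alternatives were median centring, cyclic loess, quantile normalization, the replicate number as a block, no filter, a filter at the 50th percentile, signals below 64 raised to 64, eBayes with trend and robust, array weights, the mean of probe sets, leaving out each array, and, chosen after seeing the data, a block for the labelling pairs.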

Additional observations from a re-analysis of the deposited data

How the results depend on the processing

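Acta2, Actg2, Actc1 and Acta1 kept their direction under every alternative run. The Acta2 difference ran from -1.98 with the mean of probe sets to -0.29 with cyclic loess, and passed under none. The Actg2 call was lost under 10 of 15: with the replicate block (-1.51, adjusted p = 0.0514), the block for labelling pairs (-1.51, adjusted p = 0.0932), quantile normalization (-1.48), cyclic loess (-1.40), no filter (-1.51), the mean of probe sets (-1.51) and each array left out (-1.57 to -1.45). Acta1 passed with the replicate block (3.22, adjusted p = 0.0154). It also passed without Smad4-KO replicate 1, in a fit that rests on 1 Smad4-KO array. Its leave-one-out range was 1.72 to 4.73, and it was not tested at the 50th percentile filter. The Acta2 probe set 1444105_at missed the threshold under 10 of 14, with the replicate block at an adjusted p of 0.0596, in a range of 0.0185 to 0.263. Actb 1419734_at turned positive with quantile normalization (0.10), cyclic loess (0.10) and without an array (range -0.34 to 0.02), Actb 1436722_a_at with the same settings (0.01, 0.05, range -0.72 to 0.40), and Actg1 turned negative with median centring (-0.20) and without an array (range -0.20 to 0.23). With the mean of probe sets, Acta2 over Actg2 turned to -0.47 and Acta2 over Actc1 to -1.04. The causes were not tested.

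Genes called higher and lower numbered 672 and 189, against 1035 and 286 with the replicate block, 427 and 91 with the mean of probe sets, 0 and 0 with the block for labelling pairs (2658 at an unadjusted p under 0.05) or no filter (2788), 453 and 225 with median centring (66.8% higher, against 78.0%), 480 and 224 with the 50th percentile filter (68.2% higher), and 0 to 632 and 0 to 176 without an array, the lowest without WT replicate 2 (1791 at an unadjusted p under 0.05). Without WT replicate 1 they were 252 and 18. Probe sets called higher and lower numbered 184 and 21, against 133 and 13 with the replicate block, 122 and 18 with cyclic loess, 460 and 141 with the 50th percentile filter, 481 and 96 with the floor of 64, 468 and 118 with trend and robust, and 0 and 0 in limma with the block for labelling pairs (3634 at an unadjusted p under 0.05), quantile normalization (3696), median centring (3869) or no filter (4090). Without an array they were 0 to 121 and 0 to 18, and 0 without Smad4-KO replicate 1 (3748) or either WT array (2581 and 2276). The replicate numbers do not pair the arrays: the replicate 1 minus 2 differences of Smad4-KO and WT correlated across 13645 genes at -0.01. This value shows no pairing across genes for the labelling pairs either, which rest on the labelling controls alone. Without an array the lone array of its genotype is assumed to vary like the others.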
